A study of Mus musculus with 16 samples.

Results

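The maturation of cortical endothelial cells between postnatal day 14 (P14) and postnatal day 50 (P50) was compared between mice that lack 1 copy of the 16p11.2-homologous interval (16p11.2 df/+) and their wild-type (WT) littermates. The quantity compared was an interaction, the log2 ratio of P50 to P14 in df/+ minus the log2 ratio of P50 to P14 in WT. A positive value means that a gene rose more, or fell less, with age in df/+ than in WT. All 16 of the 16 libraries entered it, and 15368 of 52636 annotated genes had enough reads to be tested. Bulk RNA sequencing was done on 4 libraries from P50 df/+ mice, 4 from P14 df/+ mice, 4 from P50 WT mice and 4 from P14 WT mice. Each library pooled the cells of 2 mice, so that 32 mice were used in all, and the sex of the animals was not given. The df/+ mice carry the deletion in every cell of the body, on a mixed B6/129 background that the WT littermates share. Cortical cells were depleted of myelin and of CD45-positive leukocytes, selected with beads against the endothelial surface protein CD31, and their RNA was extracted without culture.

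The deleted interval holds genes of growth and signalling pathways such as Mapk3, which encodes the kinase ERK1, and Taok2, a kinase of stress signalling. In the mouse cortex the second postnatal week is a time of vessel sprouting and endothelial division. In the adult the same cells form a quiescent vessel wall with a tight blood-brain barrier. An interaction asks whether this transition ran along the same course in both genotypes.

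Total counts ranged from 15611059 to 18737781 in P50 df/+ libraries, from 8658792 to 18063589 in P14 df/+ libraries, from 14303921 to 17639603 in P50 WT libraries and from 12484207 to 17178787 in P14 WT libraries. The library numbers in the column names split exactly as the interaction does. P50 df/+ and P14 WT, the groups with a plus sign in the contrast, hold numbers S1 to S8, and P14 df/+ and P50 WT, the groups with a minus sign, hold S9 to S16. A difference between these number blocks and the interaction therefore cannot be told apart, and no value within 1 block exists. The same holds for age within each genotype and for df/+ against WT at each age, which also set 1 block against the other. Mapk3 and Taok2 fitted the labels. Mapk3 had 240.4, 293, 163 and 163 CPM in the P50 df/+ libraries and 158, 138, 143 and 152 CPM in the P14 df/+ libraries, against 389, 436, 367 and 459 CPM in the P50 WT libraries and 272, 342, 321 and 340.1 CPM in the P14 WT libraries, where CPM is the read count scaled to library size. The df/+ libraries were below the WT libraries at each age for Mapk3, and likewise for Taok2, which had 116 ± 21.0 CPM at P50 and 147 ± 7.20 CPM at P14 in df/+, against 246 ± 16.9 and 324 ± 28.5 CPM in WT (SD, n = 4 each). Replicate 2 of P50 df/+ stood apart on the second principal component, and its counts fell most steeply with exon length, with a slope of -0.28 log2 CPM per doubling of length (the other 15 libraries were between -0.15 and 0.15). Replicate 1 of P14 WT stood apart in markers of other cell types, given below. Pecam1, which marks endothelium, was between 1175 and 1673 CPM in every library. The p-values measure the spread between these libraries. In bulk RNA, fewer cells of a type and less RNA per cell cannot be told apart.

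No gene's change with age differed between df/+ and WT at an adjusted p under 0.05. edgeR's quasi-likelihood test with Benjamini-Hochberg adjustment called 0 of 15368 genes (0%), with a smallest adjusted p of 1.00. DESeq2 and limma-voom also called 0. At an unadjusted p under 0.05 edgeR's test listed 305 genes (1.98%), 177 with a higher difference in df/+ (1.15%) and 128 with a lower one (0.833%), DESeq2 listed 425 and limma-voom 329. When 1 library at a time was left out, the edgeR count of 305 ranged from 209 without replicate 2 of P14 WT to 654 without replicate 3 of P50 df/+. It was 602 without replicate 1 of P14 WT, 517 without replicate 4 of P50 df/+ and 467 without replicate 1 of P50 df/+. In each case 0 genes passed the adjusted threshold. Where no gene differs, a threshold of 0.05 lists a share of about 0.05, above the 1.98% that edgeR listed with all libraries. Limma-voom with sample quality weights listed 1378 of 15368 genes, above that share. It called 0 genes, with a smallest adjusted p of 0.0880.

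The absence of a call does not show that the genotypes matured alike, because the interaction combines the error of 4 groups. Its median standard error was 0.367 on the log2 scale, against 0.261 for the change with age within df/+ and within WT. For 7528 genes (49.0%) the 95% interval of the interaction lay within a log2 value of 1 on either side of 0, and for 2747 genes (17.9%) it reached beyond a log2 value of 2. The estimate itself was under 0.5 in size for 12367 genes (80.5%) and over 1 for 854 genes (5.56%), and 751 of those 854 had a mean level under 5 CPM. Over all tested genes the median interaction was 0.01 and 51.4% of values were above 0.

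**Figure D1:**
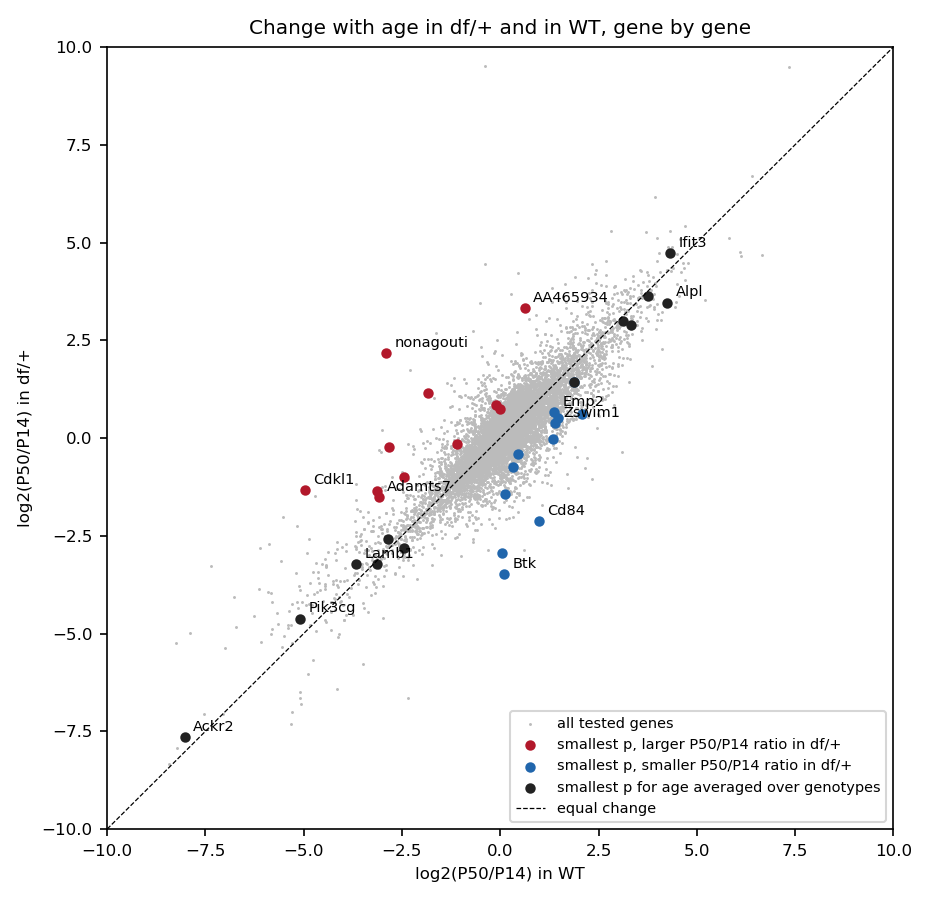
Each point is a gene, with its log2 ratio of P50 to P14 in WT on the x axis and in df/+ on the y axis; the dashed line marks equal change. Most of the 15368 genes lie along the line, the 12 genes with the smallest age p (black) close to it, and genes with the smallest unadjusted interaction p (red above, blue below) farther from it, although none of them passed the adjusted threshold.

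Maturation itself was large in both genotypes and ran in the same direction. In df/+, 2561 genes rose (16.7%) and 1951 fell (12.7%) between P14 and P50, and in WT 2013 rose (13.1%) and 1852 fell (12.1%). Of these, 3089 genes were called in both genotypes, which is 68.5% of the df/+ list and 79.9% of the WT list, and 0 of them moved in opposite directions. The number of called genes was higher in df/+ as reported, and the order turned without replicate 2 of P50 df/+ (4079 in df/+ and 5371 in WT) and under limma-voom with sample quality weights (5347 in df/+ and 6508 in WT), so that no order between the genotypes is read from it. Under limma-voom 1975 genes rose and 2241 fell in df/+, and 1795 rose and 1873 fell in WT. Of the 1423 genes called in df/+ and not in WT, 1387 had the same sign in WT, and of the 776 called in WT and not in df/+, 753 had the same sign in df/+. At an unadjusted interaction p under 0.05, 70 of the 1423 and 77 of the 776 were listed, beside 305 of all 15368 tested genes (1.98%). Both sets were chosen by a call in only 1 genotype, which favours a difference, so no result is read from these counts. Across genes the 2 changes had a Pearson correlation of 0.88 and a Spearman correlation of 0.83, a description over genes, which are not independent replicates.

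The genes with the smallest p for age, averaged over the genotypes, were followed through the interaction one by one. This average called 3713 genes as rising (24.2%) and 3032 as falling (19.7%). Ackr2, a scavenger receptor that takes up inflammatory chemokines, had 0.846, 0, 0.581 and 0.538 CPM in the P50 df/+ libraries and 107, 105, 83.2 and 117 CPM in the P14 df/+ libraries, against 0.568, 0.331, 0.419 and 0.331 CPM in the P50 WT libraries and 105, 117, 105 and 109 CPM in the P14 WT libraries. The P50 libraries of both genotypes were below 1 CPM and the lowest P14 library was at 83.2 CPM, with log2 changes of -7.64 in df/+ and -8.03 in WT. The interaction was 0.39 with a 95% interval of -0.76 to 1.53, and it was 0.0170 without replicate 1 of P50 df/+, with its sign turned under limma-voom. Lamb1, the laminin beta 1 chain of the vessel basement membrane, had 68.3, 56.6, 56.2 and 57.2 CPM in the P50 df/+ libraries and 598, 533, 534 and 572 CPM in the P14 df/+ libraries, against 38.5, 50.4, 52.9 and 52.5 CPM in the P50 WT libraries and 566, 621, 662 and 606 CPM in the P14 WT libraries. It fell without overlap in both genotypes, with log2 changes of -3.23 in df/+ and -3.66 in WT, and all 4 P50 df/+ libraries were above all 4 P50 WT libraries. The interaction of Lamb1 was 0.43 (95% interval 0.08 to 0.78, unadjusted p 0.0198 and adjusted p 1.00 by edgeR's quasi-likelihood test).

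The other strong falls had 95% intervals that included 0. Pik3cg, the catalytic subunit of PI3-kinase gamma, averaged 1.04 ± 0.165 CPM at P50 and 25.6 ± 2.63 CPM at P14 in df/+, against 0.904 ± 0.404 and 30.7 ± 5.82 CPM in WT (SD, n = 4 each), and its interaction was 0.47 (95% interval -0.27 to 1.21). Pcdh12, a protocadherin of endothelial junctions, averaged 25.8 ± 2.56 CPM at P50 and 242 ± 22.8 CPM at P14 in df/+, against 31.7 ± 2.74 and 278 ± 40.3 CPM in WT. It fell with log2 changes of -3.23 in df/+ and -3.13 in WT, and the interval around its interaction of -0.09 was -0.47 to 0.28. Cmklr1, a receptor for the chemoattractant chemerin, had an interaction of 0.28 (-0.14 to 0.69). Lcp1, the actin-bundling protein L-plastin, had -0.36 (-0.77 to 0.05).

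Among the strongest rises, Alpl, the tissue-nonspecific alkaline phosphatase found on brain endothelium, had 249, 246, 201 and 201 CPM in the P50 df/+ libraries and 17.2, 23, 23.8 and 17.6 CPM in the P14 df/+ libraries, against 299, 295, 223 and 363 CPM in the P50 WT libraries and 13.5, 12.2, 15.5 and 20.7 CPM in the P14 WT libraries. It rose in both genotypes without overlap, by a log2 value of 3.46 in df/+ and 4.25 in WT, and P50 df/+ and P50 WT libraries overlapped. Its interaction of -0.79 (95% interval -1.34 to -0.24, unadjusted p 0.00772, adjusted p 1.00 by edgeR's quasi-likelihood test) was the most negative of the 12 age genes. Gipc3, a PDZ-domain protein best known for its role in hearing, had 106, 112, 103 and 93.2 CPM in the P50 df/+ libraries and 41.0, 35.1, 38.7 and 37.5 CPM in the P14 df/+ libraries, against 117, 131, 115 and 138 CPM in the P50 WT libraries and 34.0, 35.2, 33.9 and 32.9 CPM in the P14 WT libraries. The P50 df/+ values were all below the P50 WT values, with an interaction of -0.44 (-0.73 to -0.14, unadjusted p 0.00604, adjusted p 1.00, edgeR). Cbx7, a Polycomb-group chromatin protein, rose by 2.99 in df/+ and 3.12 in WT (interaction -0.13, -0.62 to 0.36). Slc26a10, of the SLC26 anion transporter family, rose by 3.62 and 3.76 (interaction -0.13, -0.70 to 0.43). AW112010 rose by 2.90 in df/+ and 3.33 in WT, with an interaction of -0.43 (-0.89 to 0.04).

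**Figure D2:**
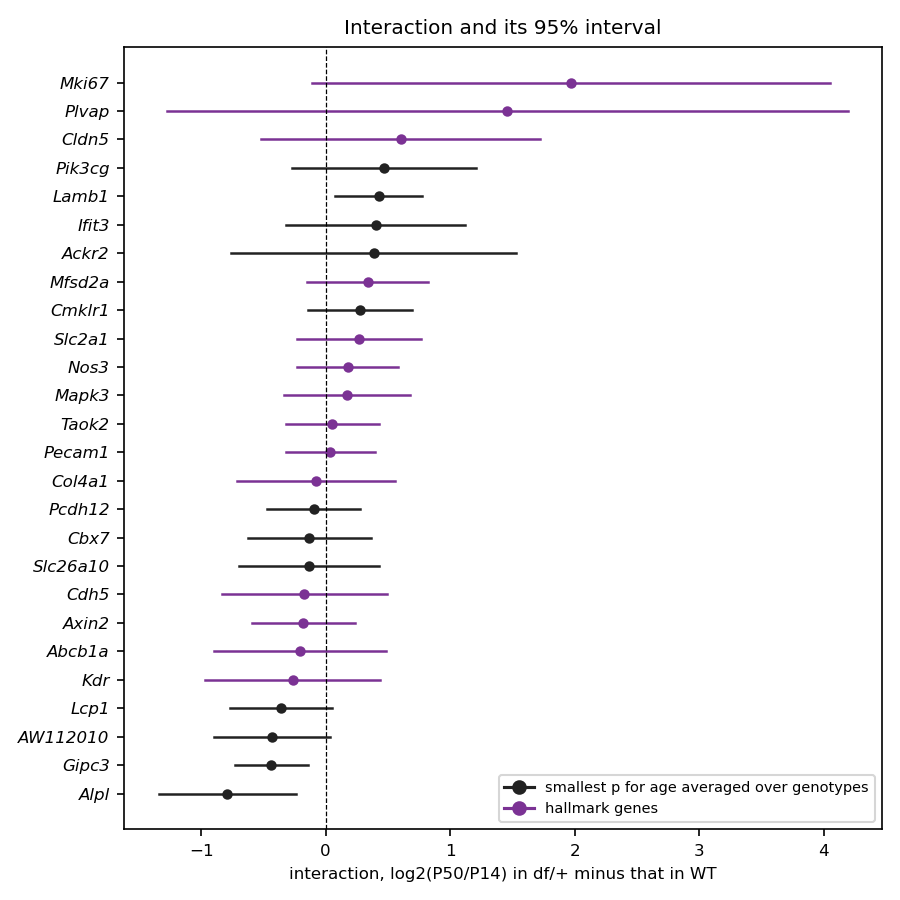
Interaction (x axis, log2) with its 95% interval for the 12 genes with the smallest averaged age p (black) and 14 hallmark genes (purple), sorted by value. The intervals of Lamb1, Gipc3 and Alpl leave out 0 and those of the other genes include it; Plvap and Mki67 have the widest intervals.

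Endothelial programmes had interactions centred near 0. The median change with age had the same sign in df/+ and WT for 10 of the 12 endothelial gene lists, the exceptions being venous genes, at 0.25 in df/+ and -0.21 in WT, and TGF-beta genes, at -0.11 and 0.04. All 12 lists had an interaction median between -0.11 and 0.13, beside 0.01 over all tested genes, and 0 members of any of the 35 lists were called. Of all tested genes 16.7% rose and 12.7% fell in df/+, and 13.1% and 12.1% in WT, shares that stand beside the counts of each list. Angiogenesis and tip-cell genes, which guide sprouting vessels, mostly fell. In each genotype the counts were close: 19 of 32 tested members fell and 5 rose in df/+, and 21 fell and 3 rose in WT, with median log2 changes of -1.09 and -1.40. The list's interaction was above 0 for 21 members (median 0.13). Apln, the sprouting signal apelin, had 69.3, 19.4, 12.3 and 16.6 CPM in the P50 df/+ libraries and 657, 702, 566 and 707 CPM in the P14 df/+ libraries, against 14.3, 12.7, 14.0 and 15.9 CPM in the P50 WT libraries and 647, 746, 801 and 725 CPM in the P14 WT libraries. Replicate 1 of P50 df/+, at 69.3 CPM, was above the other 7 P50 libraries, and the interaction of 1.2 (95% interval 0.05 to 2.35) was 0.33 without it. Kdr, the VEGF receptor 2, fell to 782 ± 292 CPM at P50 in df/+, against 2687 ± 217 CPM at P14, and to 901 ± 236 CPM at P50 in WT, against 2582 ± 139.7 CPM at P14. Its interaction was -0.26 (-0.96 to 0.44).

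Basement membrane and collagen genes fell in both genotypes, 23 of 31 members in df/+ and 19 in WT, with medians of -1.26 and -0.96. Col4a1, the collagen IV alpha 1 chain, averaged 1939 ± 678 CPM at P50 and 6566 ± 808 CPM at P14 in df/+, against 2012 ± 234 and 6465 ± 185 CPM in WT (SD, n = 4 each), and its interaction was -0.08 (-0.71 to 0.56). Col1a1, a fibrillar collagen made mainly by fibroblasts, fell by 1.97 on the log2 scale in df/+ (adjusted p 0.000595, edgeR) and had a log2 ratio of -0.71 in WT (adjusted p 0.135, edgeR). Its interaction of -1.26 (-2.26 to -0.26) was the lowest in the list, and it was -0.76 without replicate 4 of P50 WT. The list's interaction was below 0 for 21 of 31 members (median -0.08), and below 0 for fewer, with a median of 0.09, without replicate 2 of P50 df/+.

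For genes of the mature barrier, the transporter list had an interaction median of -0.02. The single genes given here had intervals that included 0, some of them wide. Blood-brain barrier transporters fell in 14 of 34 members and rose in 3 in df/+, and fell in 13 and rose in 6 in WT, with medians of -0.49 and -0.51. Over all tested genes 12.7% fell and 16.7% rose in df/+, and 12.1% fell and 13.1% rose in WT. Slc2a1, the glucose transporter GLUT1, averaged 4588 ± 882 CPM at P50 and 2652 ± 337 CPM at P14 in df/+, against 3728 ± 714 and 2595 ± 278 CPM in WT and rose in both genotypes, with an interaction of 0.27 (-0.23 to 0.77). Mfsd2a, the transporter of omega-3 lysolipids that restrains transcytosis, averaged 682 ± 169 CPM at P50 and 1252 ± 99.6 CPM at P14 in df/+, against 593 ± 95.6 and 1376 ± 116 CPM in WT and fell in both, with an interaction of 0.34 (-0.15 to 0.82), or 0.16 without replicate 2 of P50 df/+. Abcb1a, the efflux pump P-glycoprotein, had an interaction of -0.21 (-0.89 to 0.48). Cldn5, the tight junction claudin of the barrier, had 6538, 13416, 3118 and 2609 CPM in the P50 df/+ libraries and 3594, 3267, 3463 and 3614 CPM in the P14 df/+ libraries, against 3893, 5555, 4201 and 5801 CPM in the P50 WT libraries and 3255, 4555, 4055 and 4163 CPM in the P14 WT libraries. Replicate 2 of P50 df/+ was far above the other 15 libraries, and the Cldn5 interaction of 0.60 (-0.51 to 1.72) was -0.05 without that library. Plvap, the diaphragm protein of fenestrated and immature vessels, had 25.4, 28.5, 38.3 and 245 CPM in the P50 df/+ libraries and 2.01, 0.550, 13.5 and 7.89 CPM in the P14 df/+ libraries, against 5.49, 58.9, 11.9 and 71.1 CPM in the P50 WT libraries and 4.52, 7.43, 7.29 and 9.93 CPM in the P14 WT libraries. Its P50 libraries spread from 25.4 to 245 CPM in df/+ and from 5.49 to 71.1 CPM in WT, so that the interaction of 1.46 had an interval of -1.28 to 4.19. Without replicate 4 of P50 df/+ it was 0.0035, and without replicate 3 of P14 df/+ it was 2.22.

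Endothelial identity genes were called in both directions with age. In df/+ 8 of 34 members rose and 10 fell, in WT 7 rose and 10 fell, beside 16.7% that rose and 12.7% that fell over all tested genes in df/+ and 13.1% and 12.1% in WT, and the interaction median was 0.03. Pecam1, which encodes the CD31 used for selection, averaged 1455 ± 222 CPM at P50 and 1339 ± 53.1 CPM at P14 in df/+, against 1459 ± 126 and 1378 ± 52.5 CPM in WT (SD, n = 4 each), and its interaction was 0.04 (-0.32 to 0.40). Cdh5, the junction protein VE-cadherin, had an interaction of -0.17 (-0.83 to 0.49), and Nos3, the endothelial nitric oxide synthase, had 0.18 (-0.23 to 0.59). Mcam, the adhesion molecule CD146, fell with log2 changes of -1.85 in df/+ and -2.13 in WT. Axin2, a feedback target of Wnt signalling, rose by 0.47 in df/+ and 0.65 in WT, with an interaction of -0.18 (-0.59 to 0.23). Junctions, caveolae, Notch and arterial, venous, Wnt, nitric oxide, TGF-beta and adhesion lists had interaction medians from -0.11 to 0.09. For barrier transporters, junctions, Wnt, nitric oxide and basement membrane lists the sign of the median turned when length and GC trends were removed, a setting that moved the median of all genes to 0.12.

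**Figure D3:**
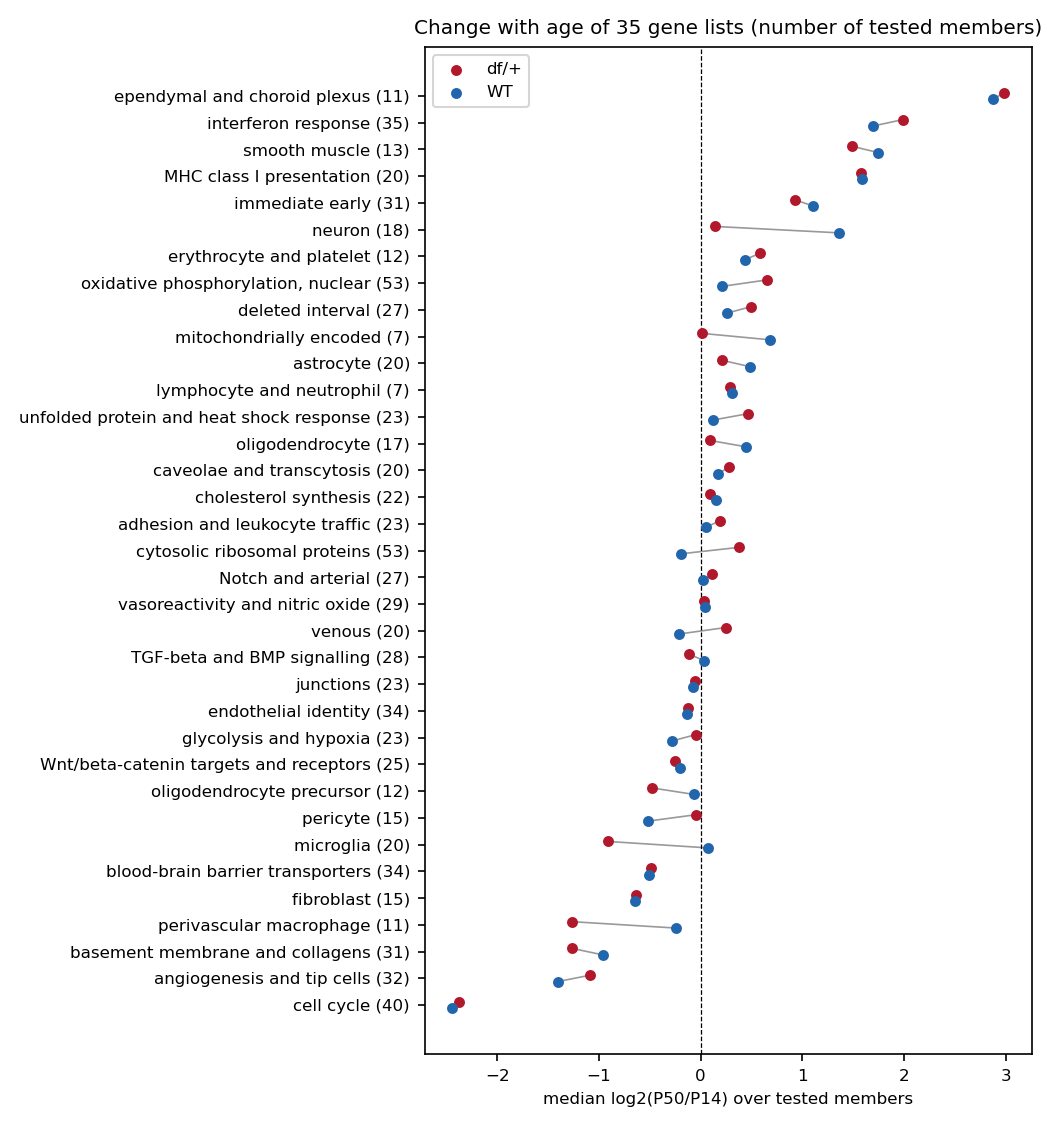
Median log2 ratio of P50 to P14 over the tested members of each of 35 gene lists in df/+ (red) and WT (blue), sorted by their mean; the number of tested members is in parentheses. The medians of endothelial identity, junction, barrier transporter and nitric oxide lists nearly coincide, while those of neuron, perivascular macrophage, microglia, mitochondrially encoded and ribosomal protein lists are the farthest apart.

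Cell cycle genes fell with age in both genotypes. Of 40 cell cycle genes, 33 fell in df/+ and 33 in WT, with median log2 changes of -2.37 and -2.44. The interaction was above 0 for 29 of the 40 (median 0.17, standard errors with a median of 0.485), and its median was 0.35 without replicate 1 and 0.10 without replicate 4 of P14 WT. Mki67, the proliferation antigen Ki-67, had 2.48, 0, 6.40 and 0.915 CPM in the P50 df/+ libraries and 32.5, 31.8, 35.6 and 51.7 CPM in the P14 df/+ libraries, against 0.441, 0.861, 0.768 and 0.717 CPM in the P50 WT libraries and 17.2, 42.7, 59.3 and 49.5 CPM in the P14 WT libraries. All P50 libraries were below all P14 libraries in each genotype, while within P50 df/+ the values ran from 0 to 6.40 CPM and within P50 WT from 0.441 to 0.861 CPM. The interaction of Mki67 was 1.97 with an interval of -0.11 to 4.05, and it was 0.90 without replicate 3 of P50 df/+ and 0.48 under limma-voom. Ccnb2, the mitotic cyclin B2, averaged 0.751 ± 0.650 CPM at P50 and 11.8 ± 2.89 CPM at P14 in df/+, against 0.213 ± 0.131 and 12.9 ± 5.38 CPM in WT, with an interaction of 1.88 (0.21 to 3.55), or 1.07 without replicate 1 of P50 df/+. Among genes called for the averaged age change, 409 had a log2 change below -2. Their interaction was above 0 in 61.1% of cases, with a median of 0.16, and median changes of -2.78 in df/+ and -3.04 in WT. The full set of 3032 falling genes did not show this lean, with 49.2% above 0 and a median of -0.0049. The 499 genes whose averaged change was above 2 had an interaction above 0 in 51.9% of cases, with medians of 2.70 in df/+ and 2.64 in WT. For all 3713 rising genes the share was 57.3%, with a median interaction of 0.06.

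Interferon-response genes were the list that rose most among the cell processes. In df/+ 32 of 35 tested members rose and in WT 32 rose, with medians of 1.99 and 1.70, and 0 fell in either. Ifit3, an antiviral protein induced by interferon, had 84.8, 59.1, 66.3 and 45.2 CPM in the P50 df/+ libraries and 2.61, 1.98, 2.65 and 2.26 CPM in the P14 df/+ libraries, against 43.7, 75.5, 62.3 and 96.0 CPM in the P50 WT libraries and 3.88, 3.27, 3.92 and 2.71 CPM in the P14 WT libraries. It rose without overlap in both genotypes, by 4.73 in df/+ and 4.33 in WT, and the P14 df/+ libraries were all below the P14 WT libraries. The interaction was 0.40 (-0.32 to 1.12), or 0.23 without replicate 1 of P50 df/+. Usp18, an enzyme that removes ISG15 from proteins, had an interaction of 0.62 (0.00 to 1.25). Dhx58, an RNA sensor of the RIG-I family, had 17.8, 10.3, 18.8 and 17.2 CPM in the P50 df/+ libraries and 3.69, 3.30, 5.23 and 3.71 CPM in the P14 df/+ libraries, against 12.7, 16.9, 16.2 and 19.3 CPM in the P50 WT libraries and 6.89, 6.26, 6.33 and 6.0 CPM in the P14 WT libraries. Its P14 df/+ libraries were all below its P14 WT libraries and its P50 libraries overlapped, with an interaction of 0.65 (95% interval 0.04 to 1.26, unadjusted p 0.0387, adjusted p 1.00 by edgeR's quasi-likelihood test). The interaction of the list was above 0 for 27 of 35 members, with a median of 0.21, beside 51.4% and 0.01 over all genes. The median was 0.11 without replicate 1 of P50 WT.

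The promoters of the interferon list were read for the interferon-stimulated response element GAAANNGAAA, on both strands and in RefSeq windows of 300 bases around the gene start in GRCm38.p6. Of 26 interferon-list genes with a window, 17 held the motif (65.4%), against 3.67% of the tested genes and 3.99% of all genes. The list was drawn up from genes known to respond to interferon, so a high share was likely in advance and is no result of these data. Of MHC class I genes 4 of 17 held it (23.5%), of cell cycle genes 1 of 32 (3.12%) and of ribosomal protein genes 6 of 40 (15%). The 250 bases before the start of 3 members, chosen after their values were seen, are shown, with each match in capitals, and the motif or its reverse complement may overlap another match.
Ifit3 chr19:34583279-34583528 + strand: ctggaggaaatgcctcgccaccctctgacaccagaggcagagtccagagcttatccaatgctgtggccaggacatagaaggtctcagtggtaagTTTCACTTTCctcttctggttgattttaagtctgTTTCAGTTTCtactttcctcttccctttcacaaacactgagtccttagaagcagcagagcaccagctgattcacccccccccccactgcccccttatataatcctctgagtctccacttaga
Ifit1 chr19:34640639-34640888 + strand: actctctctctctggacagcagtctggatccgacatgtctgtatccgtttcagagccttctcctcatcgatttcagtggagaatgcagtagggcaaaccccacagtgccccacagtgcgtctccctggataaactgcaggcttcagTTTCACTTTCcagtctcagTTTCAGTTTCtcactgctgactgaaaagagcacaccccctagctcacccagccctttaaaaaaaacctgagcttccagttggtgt
Isg15 chr4:156200819-156201068 - strand: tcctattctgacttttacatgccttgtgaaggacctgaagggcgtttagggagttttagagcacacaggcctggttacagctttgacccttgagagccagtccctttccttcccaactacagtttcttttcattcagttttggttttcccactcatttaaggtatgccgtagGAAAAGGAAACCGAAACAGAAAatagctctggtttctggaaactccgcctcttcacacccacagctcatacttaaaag
A match is a run of letters and says nothing of binding in these cells. Ifit1, an antiviral protein of the Ifit3 family, rose by 3.49 on the log2 scale in df/+ and 3.16 in WT, and Isg15, a ubiquitin-like modifier, by 2.77 in df/+ and 2.26 in WT.

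MHC class I presentation genes rose in both genotypes, 17 of 20 in each, with medians of 1.58 in df/+ and 1.58 in WT and an interaction median of 0.04. Calr, the chaperone calreticulin of the loading complex, had an interaction of 0.28 (-0.24 to 0.81), and Erap1, the peptidase that trims antigenic peptides, had -0.44 (-1.39 to 0.52). Without replicate 2 of P50 df/+ these were 0.0449 for Calr and -0.14 for Erap1.

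Immediate early genes are switched on within minutes by activity or by tissue dissociation. They rose in 13 of 31 members in df/+ and 18 in WT, beside 16.7% and 13.1% of all tested genes. The interaction of the list was below 0 for 25 members (median -0.28). The median was -0.61 without replicate 1 of P14 WT and -0.12 without replicate 1 of P50 WT. Fosb, an AP-1 transcription factor, had 677, 1119, 372 and 1187 CPM in the P50 df/+ libraries and 182, 315, 381 and 362 CPM in the P14 df/+ libraries, against 2975, 2661, 623 and 414 CPM in the P50 WT libraries and 228, 126, 193 and 143 CPM in the P14 WT libraries. Replicates 1 and 2 of P50 WT were the highest, and the highest of the other 14 libraries, replicate 4 of P50 df/+, had 1187 CPM, and the interaction of -1.84 had an interval of -3.43 to -0.25. Chaperone and unfolded-protein genes leaned the other way, with an interaction above 0 for 19 of 23 members and a median of 0.34. Hspa8, the constitutive Hsp70 chaperone, had 1203, 1585, 1441 and 1832 CPM in the P50 df/+ libraries and 1443, 1216, 1382 and 1141 CPM in the P14 df/+ libraries, against 1006, 812, 1131 and 896 CPM in the P50 WT libraries and 1484, 1179, 1145 and 1386 CPM in the P14 WT libraries. All 4 P50 df/+ libraries were above all 4 P50 WT libraries and the P14 libraries overlapped, with an interaction of 0.66 (95% interval 0.20 to 1.12, unadjusted p 0.00757, adjusted p 1.00 by edgeR's quasi-likelihood test). Glycolysis genes had a median of 0.23, or 0.11 without replicate 2 of P50 df/+, and cholesterol synthesis genes of -0.01. Pdia4, a disulfide isomerase of the endoplasmic reticulum, had an interaction of 0.34 (0.03 to 0.65).

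Genes of the ribosome and of respiration had interactions of 1 sign within each list, with all 16 libraries and no trend removed. All 53 tested cytosolic ribosomal protein genes had a positive interaction (median 0.57), as did all 53 nuclear genes of oxidative phosphorylation (median 0.45), while all 7 tested mitochondrially encoded genes had a negative one (median -0.67), and 0 of these were called. Rps14, a protein of the small ribosomal subunit, had 749, 1582, 258 and 286 CPM in the P50 df/+ libraries and 432, 325, 337 and 390.4 CPM in the P14 df/+ libraries, against 340.2, 493, 361 and 653 CPM in the P50 WT libraries and 402, 555, 494 and 509.7 CPM in the P14 WT libraries. Replicate 2 and then replicate 1 of P50 df/+ were the highest of the 16, and replicates 3 and 4 of the same group the lowest. Without replicate 2 of P50 df/+ the ribosomal median was 0.09, with 43 of 53 positive, and the oxidative phosphorylation median was 0.04, with 33 of 53 positive. Without that library the Rps14 interaction of 1.04 was 0.30. Both medians were negative under limma-voom with sample quality weights. The mitochondrially encoded genes stayed negative in 7 of 7 without that library (median -0.50). The complex I subunit mt-Nd4 had an interaction of -0.71 (-1.40 to -0.02). With length and GC trends removed it was -0.24, and 1 of the 7 genes was positive (median -0.41).

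The genes with the smallest unadjusted interaction p are described next, and none was called. Emp2, a tetraspan membrane protein on chromosome 16 (GRCm38, 10281749 to 10313968), had the smallest, 8.945e-04 by edgeR's quasi-likelihood test with an adjusted p of 1.00. It had 196, 144, 157 and 157 CPM in the P50 df/+ libraries and 93.4, 98.9, 112 and 106 CPM in the P14 df/+ libraries, against 279, 249, 229 and 225 CPM in the P50 WT libraries and 90.7, 83.0, 96.1 and 108 CPM in the P14 WT libraries. The P50 df/+ libraries lay below every P50 WT library and above every P14 library, and the P14 groups overlapped. Emp2 rose by a log2 value of 0.67 in df/+ and 1.38 in WT, with an interaction of -0.71 (SE 0.172, 95% interval -1.07 to -0.34). Over the 26 alternative settings it stayed between -0.81 and -0.52.

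Zswim1, a gene of a zinc-finger (SWIM) protein, had 10.7, 12.2, 10.6 and 13.4 CPM in the P50 df/+ libraries and 8.63, 9.13, 8.58 and 9.68 CPM in the P14 df/+ libraries, against 18.2, 35.9, 24.4 and 30.4 CPM in the P50 WT libraries and 8.87, 10, 11 and 11.9 CPM in the P14 WT libraries. P50 WT was above the other 12 libraries without overlap, and the interaction was -1.0 (-1.55 to -0.45). Spata25 lies on the opposite strand of Zswim1 and overlaps it, and since the strand setting of the counting was not given, their reads cannot be told apart; its interaction was -1.47 (-2.31 to -0.62). Clip4, of the CAP-Gly family of microtubule linkers, averaged 2.47 ± 0.591 CPM at P50 and 2.49 ± 0.841 CPM at P14 in df/+, against 2.59 ± 0.278 and 1.02 ± 0.266 CPM in WT. P14 WT was the low group, with an interaction of -1.35 (-2.22 to -0.48). Ctnnd2, the delta-catenin of adherens junctions best known from neurons, had an interaction of -0.85 (-1.44 to -0.26).

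Btk, Cd84, Cd180 and Lrmp, also among the 12 genes at the negative end, were each below 3 CPM in every library. Btk, the Bruton tyrosine kinase of B and myeloid cells, had 0.0564, 0, 0.116 and 0.0538 CPM in the P50 df/+ libraries and 0.434, 0.880, 0.767 and 0.892 CPM in the P14 df/+ libraries, against 0.441, 0.530, 0.279 and 0.276 CPM in the P50 WT libraries and 0.871, 0.234, 0.206 and 0.143 CPM in the P14 WT libraries. P50 df/+ was below the other 12 libraries, from 4 reads in all, and replicate 1 of P14 WT was as high as the P14 df/+ libraries. Cd84, a receptor of the SLAM family on leukocytes, had 0.169, 0, 0.640 and 0.484 CPM in the P50 df/+ libraries and 1.57, 0.990, 1.67 and 1.58 CPM in the P14 df/+ libraries, against 0.946, 0.861, 0.349 and 0.386 CPM in the P50 WT libraries and 0.555, 0.117, 0.275 and 0.357 CPM in the P14 WT libraries. Its P14 df/+ libraries were all above the other 12, and the interaction was -3.10 (-5.05 to -1.14). Cd180, a Toll-like receptor relative on B and myeloid cells, had -2.99 (-4.80 to -1.19), Lrmp, a lymphoid membrane protein, had -1.56 (-2.64 to -0.49), and Btk had -3.58 (-5.50 to -1.65).

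At the positive end, Adamts7, a secreted metalloprotease of the extracellular matrix on chromosome 9 (90163069 to 90208071), had 2.03, 2.31, 1.80 and 4.25 CPM in the P50 df/+ libraries and 7.44, 5.83, 7.18 and 9.27 CPM in the P14 df/+ libraries, against 0.883, 1.06, 1.26 and 1.27 CPM in the P50 WT libraries and 7.45, 12.4, 9.15 and 9.29 CPM in the P14 WT libraries. It fell with age in both genotypes without overlap, and the P50 df/+ libraries stayed above the P50 WT libraries. The log2 changes were -1.51 in df/+ and -3.09 in WT, with an interaction of 1.58 (SE 0.387, 95% interval 0.75 to 2.40, unadjusted p 9.413e-04, adjusted p 1.00, edgeR), and it ranged from 1.23 to 1.73 over the alternative settings. Genes on the opposite strand overlap Adamts7 (Tbc1d2b), Cd180 (Mast4), Lrmp (Casc1), Tepp (Zfp319), Cbx7 (Apobec3), Slc26a10 (B4galnt1) and Col4a1 (Col4a2), whose counts carry the same uncertainty as those of Zswim1. Among other named genes, this holds too for Csf1r (Hmgxb3), Dhx58 (Dhx58os), Rps14 (Ndst1) and Mcam (Gm10687). Itgb3, the integrin beta 3 subunit of endothelial cells and platelets, had 7.56, 5.53, 6.63 and 5.87 CPM in the P50 df/+ libraries and 8.31, 8.14, 6.69 and 5.28 CPM in the P14 df/+ libraries, against 5.36, 5.03, 3.28 and 3.47 CPM in the P50 WT libraries and 9.67, 10.8, 8.05 and 8.14 CPM in the P14 WT libraries. Its log2 ratio was -0.15 in df/+, which was not called, against -1.09 in WT, which was called, with P50 df/+ above P50 WT in every library and an interaction of 0.94 (0.31 to 1.58).

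Stip1, the co-chaperone that hands clients between Hsp70 and Hsp90, had 114, 169, 148 and 151 CPM in the P50 df/+ libraries and 93.7, 85.7, 81.3 and 84.2 CPM in the P14 df/+ libraries, against 73.0, 81.4, 129 and 95.1 CPM in the P50 WT libraries and 97.1, 96.1, 82.2 and 103 CPM in the P14 WT libraries. It rose in df/+ by 0.76 without overlap and had a log2 ratio of 0.00 in WT, where the ages overlapped, with an interaction of 0.75 (0.26 to 1.24). Banp, a DNA-binding nuclear matrix protein, averaged 44.9 ± 8.60 CPM at P50 and 24.9 ± 2.15 CPM at P14 in df/+, against 26.6 ± 9.13 and 28.8 ± 4.10 CPM in WT (SD, n = 4 each), with an interaction of 0.97 (0.35 to 1.59).

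The gene named a, nonagouti, encodes the agouti signalling protein, a secreted antagonist of melanocortin receptors known for coat colour. It lies on chromosome 2 (154791402 to 155051012) across Raly on the same strand and Eif2s2 on the opposite strand. Its counts therefore carry the same kind of uncertainty as those of Zswim1. It had 8.69, 16.9, 4.42 and 3.77 CPM in the P50 df/+ libraries and 2.12, 1.43, 2.09 and 1.72 CPM in the P14 df/+ libraries, against 0, 0, 0.0698 and 0 CPM in the P50 WT libraries and 0.0792, 0.0585, 0.482 and 0.0714 CPM in the P14 WT libraries. All df/+ libraries were above all WT libraries at each age, and P50 WT held 1 read in its 4 libraries. By reads, the ratio of P50 to P14 was 4.20 in df/+ (541 against 107 reads, exact counting interval 3.41 to 5.22) and 0.0918 in WT (1 against 10 reads, 0.00212 to 0.646), intervals that cover counting error only. The fitted interaction of 5.09 depends on the prior count and is no bound. Cdkl1, a cyclin-dependent-kinase-like kinase with few reads, had ratios of 0.379 in df/+ (0.229 to 0.613, 26 against 57 reads) and 0.0255 in WT (0.00303 to 0.0956, 2 against 72 reads). AA465934 averaged 15.3 ± 12.6 CPM at P50 and 1.54 ± 0.365 CPM at P14 in df/+, against 8.97 ± 3.43 and 5.81 ± 4.51 CPM in WT, with an interaction of 2.69 (0.89 to 4.49), and replicate 2 of P50 df/+ was its highest library. Tepp, Gm19590, Gm11539 and Gm45819 had interactions of 2.58, 1.79, 2.99 and 1.45, each from levels below 4 CPM.

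**Figure D4:**
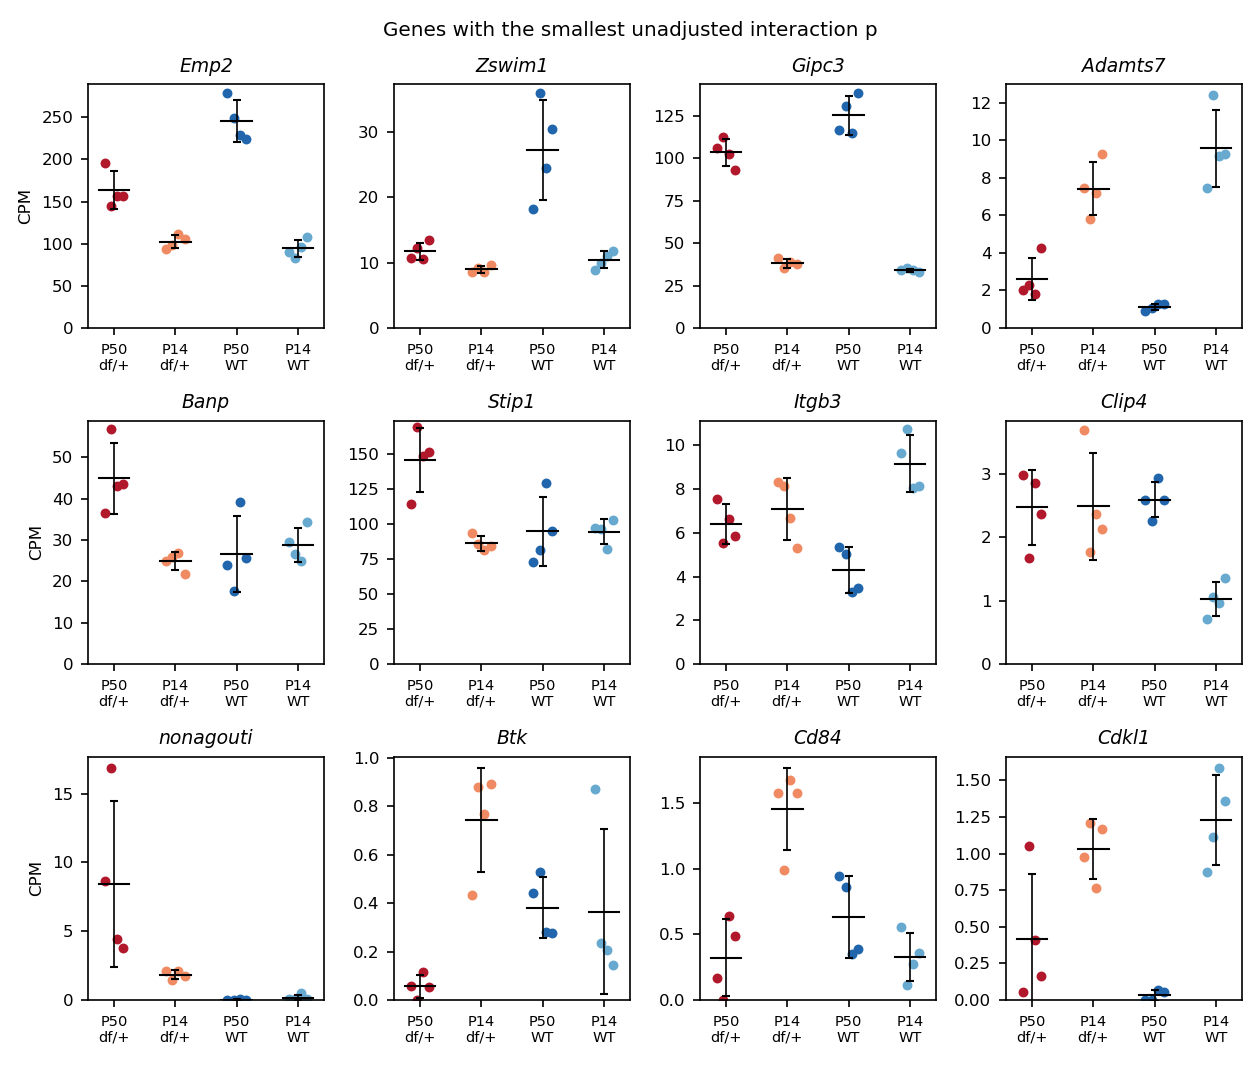
CPM of 12 genes from among those with the smallest unadjusted interaction p, in each library (points) with the mean (line) and SD (bars, not drawn below 0), by group on the x axis. P50 WT has the highest mean for Emp2, Zswim1 and Gipc3, P50 df/+ for Banp, Stip1 and nonagouti, and P14 df/+ for Btk and Cd84.

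Markers of other cell types moved with the interaction and differed between libraries of 1 group. Their part in the results for single genes was not tested. Levels of a list are given as the mean log2 CPM of its members less the P14 WT mean. The microglia list stood at 0.06 to 1.01 in P50 df/+ and 1.30 to 1.83 in P14 df/+, against -0.17 to 0.75 in P50 WT and -0.78 to 1.61 in P14 WT, where replicate 1 had 1.61 and the other 3 were below 0. All 20 microglia markers and 11 of 12 macrophage markers had enough reads to be tested. The microglia interaction was below 0 for 18 of 20 members, with a median of -1.07, and -2.25 without replicate 1 of P14 WT. Csf1r, the growth factor receptor of microglia and macrophages, had 29.3, 30.4, 11.5 and 16.6 CPM in the P50 df/+ libraries and 51.4, 41.2, 63.9 and 57.7 CPM in the P14 df/+ libraries, against 26.3, 21.4, 10.8 and 20.0 CPM in the P50 WT libraries and 46.8, 9.65, 8.67 and 5.0 CPM in the P14 WT libraries. P14 df/+ was above the 4 P50 df/+ libraries, while in WT only replicate 1 of P14 reached that level, and the interaction of -1.46 (-3.08 to 0.16) was -2.62 without it.

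Perivascular macrophage markers stood, as a mean over members, at -0.16 to 0.55 in P50 df/+ and 1.31 to 1.95 in P14 df/+, against -0.17 to 0.35 in P50 WT and -0.80 to 1.58 in P14 WT. Cd163, their scavenger receptor for haemoglobin, had 3.44, 3.50, 2.62 and 3.39 CPM in the P50 df/+ libraries and 9.72, 12.5, 12.7 and 8.10 CPM in the P14 df/+ libraries, against 4.16, 3.38, 2.30 and 2.04 CPM in the P50 WT libraries and 9.03, 1.29, 2.48 and 1.36 CPM in the P14 WT libraries. P14 df/+ was high in 4 of 4 libraries and P14 WT in replicate 1 alone, and the interaction was -1.49 (-2.95 to -0.03), with a list median of -1.01 and 10 of 11 members below 0. Without replicate 1 of P14 WT the Cd163 interaction was -2.53 and the list median -2.36, and without replicate 4 of P14 WT the list median was -0.67. In summed CPM the macrophage list spanned 220.0 to 338 for P50 df/+ libraries and 578 to 715 for P14 df/+ libraries, against 232 to 299 for P50 WT libraries and 602 to 682 for P14 WT libraries, so that on this scale the P14 groups overlapped and all P14 WT libraries were close together. The sum is set mainly by the most abundant members, since the P14 WT mean over members was only 1.576 log2 CPM. It therefore does not show that the markers were even across P14 WT libraries. The summed CPM of the microglia list spanned 86.9 to 204 for P50 df/+ libraries and 205 to 291 for P14 df/+ libraries, against 79.7 to 140.4 for P50 WT libraries and 78.1 to 240.3 for P14 WT libraries, after a selection that included a CD45 depletion. Ptprc, which encodes CD45, averaged 1.54 ± 1.11 CPM at P50 and 3.04 ± 0.645 CPM at P14 in df/+, against 1.92 ± 0.330 and 1.58 ± 0.976 CPM in WT. When replicate 2 of P50 df/+ and replicate 1 of P14 WT were both left out, 0 genes were called, and the smallest adjusted p fell to 0.0697 (edgeR). Btk and Cd163, both at an adjusted p of 0.0797, and Csf1r, at 0.0846, were the nearest of the named genes. Replicate 1 was the highest P14 WT library for each of these genes (Btk 0.871, Cd163 9.03 and Csf1r 46.8 CPM). Leaving it out enlarges their interactions by construction, so these p-values follow from the choice of library and are no separate support.

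Neuronal, astrocyte and oligodendrocyte markers also had negative medians with all libraries. The neuron list had a median interaction of -1.16, below 0 for 17 of 18 members, and -0.25 without replicate 1 of P14 df/+, which at 1.98 was the highest library of that list. Slc17a7, the vesicular glutamate transporter of cortical neurons, averaged 7.07 ± 4.30 CPM at P50 and 7.67 ± 5.19 CPM at P14 in df/+, against 11.8 ± 2.28 and 5.33 ± 2.46 CPM in WT. The astrocyte list had a median of -0.42 (17 of 20 below 0), or -0.17 without replicate 4 of P50 WT. Slc1a2, the glutamate transporter GLT-1, averaged 440.4 ± 112 CPM at P50 and 792 ± 108 CPM at P14 in df/+, against 556 ± 141 and 558 ± 140.0 CPM in WT, with an interaction of -0.84 (-1.53 to -0.15). The oligodendrocyte list stood at 2.53 in replicate 1 of P14 WT and between -1.36 and -0.39 in the other 3 libraries of that group, and its interaction median of -0.26 was -2.54 without it and 0.0731 without replicate 2 of P14 WT. Pericyte markers leaned positive, 14 of 15 with a median of 0.24; Kcnj8, the pericyte potassium channel Kir6.1, averaged 117 ± 17.2 CPM at P50 and 120.5 ± 19.7 CPM at P14 in df/+, against 92.0 ± 30.7 and 142 ± 11.1 CPM in WT, with an interaction of 0.58 (-0.03 to 1.18). Erythrocyte, lymphocyte and oligodendrocyte precursor lists had medians of 0.23, -0.46 and -0.43. The erythrocyte median was -0.14 without replicate 2 of P50 df/+, the lymphocyte median 0.34 without replicate 1 of P14 df/+, and the oligodendrocyte precursor median -1.09 without replicate 1 of P14 WT. Smooth muscle and fibroblast lists had medians of -0.04 and -0.05. Ependymal and choroid plexus markers rose in both genotypes, 10 of 11 in df/+ and 8 in WT, with an interaction median of 0.36 that was -0.28 without replicate 2 of P50 df/+.

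**Figure D5:**
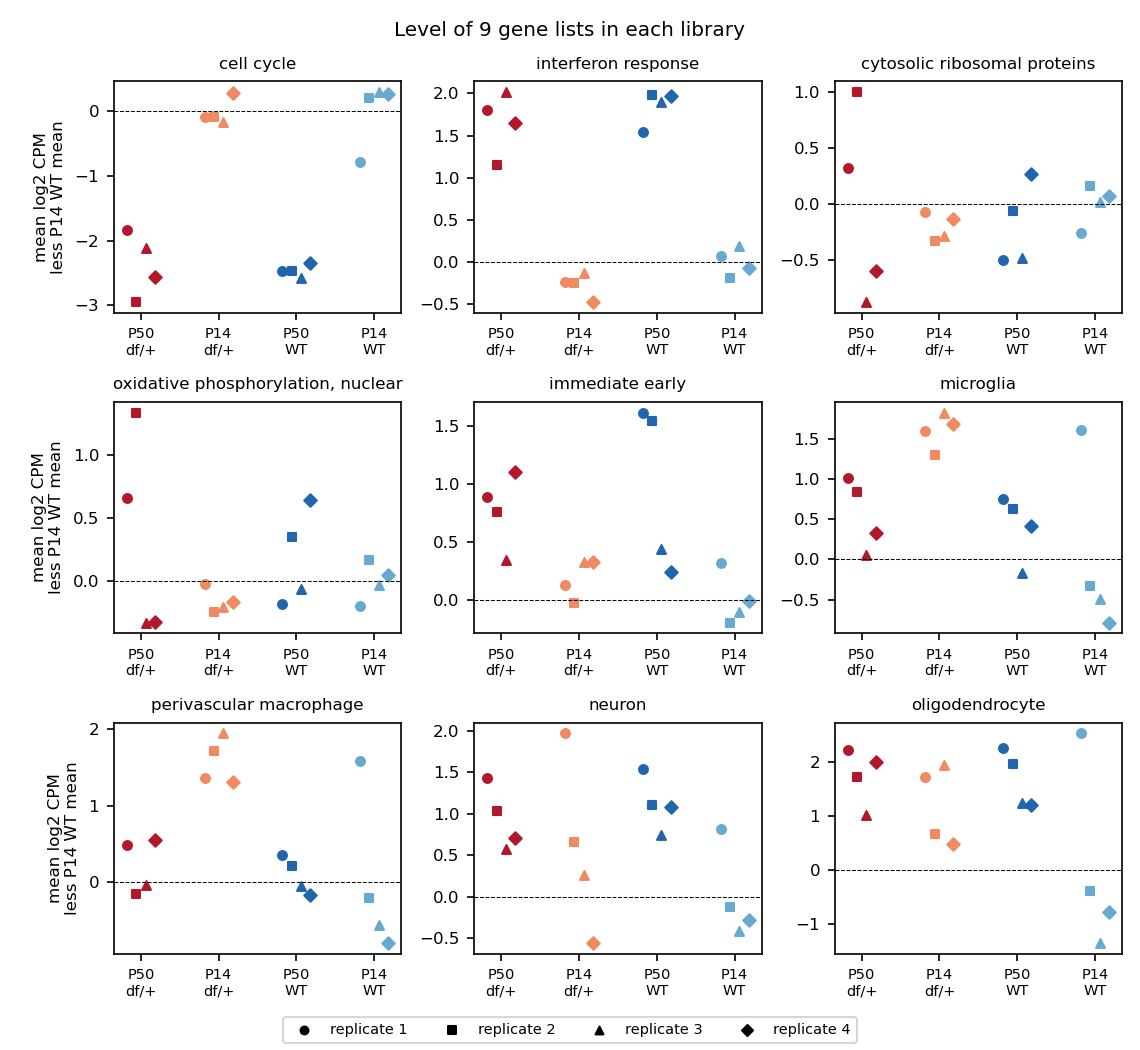
Mean log2 CPM of 9 gene lists less the P14 WT mean (y axis) in each library, by group on the x axis; symbols mark replicates 1 to 4, which do not pair across groups. Cell cycle and interferon lists separate the ages in both genotypes, ribosomal and oxidative phosphorylation lists are highest in replicate 2 of P50 df/+, and microglia and macrophage lists are high in all P14 df/+ libraries and in replicate 1 of P14 WT.

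The deleted interval, summed up as a list, was lower in df/+ at each age, and 0 of its genes were called in the interaction. The list of 27 tested genes stood at -1.0 to -0.28 in P50 df/+ and -1.15 to -0.96 in P14 df/+, against 0.12 to 0.57 in P50 WT and -0.11 to 0.06 in P14 WT, so that df/+ and WT libraries did not overlap. With age, 11 members rose and 3 fell in df/+, and 8 rose and 3 fell in WT. Among all tested genes 16.7% rose and 12.7% fell in df/+, and 13.1% and 12.1% in WT. The interaction median was 0.13, and -0.07 without replicate 2 of P50 df/+. Mapk3 had an interaction of 0.17 (-0.34 to 0.68), and Taok2 had 0.05 (-0.32 to 0.43). Ppp4c, the catalytic subunit of protein phosphatase 4, had 63.9, 123, 39.1 and 37.8 CPM in the P50 df/+ libraries and 44.8, 43.6, 37.8 and 44.8 CPM in the P14 df/+ libraries, against 75.9, 98.9, 87.6 and 119 CPM in the P50 WT libraries and 81.8, 108, 97.0 and 104 CPM in the P14 WT libraries. Its 2 highest P50 df/+ libraries, replicates 2 and 1, were those that were high for ribosomal genes. Replicate 2 of P50 df/+ was above all 4 P50 WT libraries for Ppp4c, and its interaction was 0.66 (-0.21 to 1.53), or 0.17 without replicate 2. Cd2bp2, a component of the spliceosome, had an interaction of 0.34 (-0.18 to 0.85), or 0.0878 without replicate 2 of P50 df/+.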

How the data were processed

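Whole-number counts per gene were deposited by the authors. Per the submitters' processing notes, STAR 2.5.3a, DESeq2 and GRCm38.p5 were used, while the counting of reads was not given in the sources used here. Per the labels, libraries were strand-specific mRNA libraries.

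From the deposited counts, genes passing edgeR's filterByExpr with a minimum count of 10 were kept, TMM factors were computed, and edgeR 4.0.16 (R 4.3.3) was fitted to all 16 libraries with 1 mean per group and 12 residual degrees of freedom. The interaction, age within each genotype and their average were tested with the quasi-likelihood test and Benjamini-Hochberg adjustment, with calls at an adjusted p under 0.05. CPM uses the scaled library sizes. Ensembl IDs were matched to GENCODE names on GRCm38 (52403 of 52636).

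Members and gene lists were chosen with earlier results of these data known; lists are described by counts and medians without a test. Named genes were the 12 smallest interaction p-values per direction, the 6 smallest age p-values per direction, 2 members per list and 14 hallmarks; 1 of the named genes is not reported here. Alternatives were DESeq2 1.42.0, limma 3.58.1, other scalings and filters, a length and GC offset, a replicate block and left-out libraries. Nothing in the labels says that replicate numbers pair mice across groups. The steps were tested on simulated data. The precision of a gene depends on its reads; replicate libraries of 1 group differed by 6.57 to 292 times the sampling noise in variance, so that no library was a copy.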

Additional observations from a re-analysis of the deposited data

Results flagged for a closer look

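A library was picked out where its gap to the nearest library of its group was so large a share of the group's range that it passed Dixon's 95% critical value. This happened for 25 of 568 groups of 4 libraries (4.4%), 20 for named genes and 5 for lists, and chance alone picks out about 1 in 20. Replicate 1 of P14 WT held 5 of the 25. Among P50 df/+ libraries the value was high for Lamb1 in replicate 1 (68.3 CPM, the others 56.2 to 57.2 CPM), Fgfbp1 in replicate 1 (14.4 CPM, the others 1.94 to 2.66 CPM) and Calr in replicate 2 (1191 CPM, the others 688 to 702 CPM). Among P50 df/+ libraries the value was low for Dhx58 in replicate 2 (10.3 CPM, the others 17.2 to 18.8 CPM), Cd163 in replicate 3 (2.62 CPM, the others 3.39 to 3.50 CPM), mt-Nd1 in replicate 2 (1197 CPM, the others 1893 to 2005 CPM) and Pik3cg in replicate 1 (0.790 CPM, the others 1.10 to 1.13 CPM). Among P14 df/+ libraries the value was high for Abcb1a in replicate 3 (1565 CPM, the others 1218 to 1262 CPM). Among P14 df/+ libraries the value was low for Cd84 in replicate 2 (0.990 CPM, the others 1.57 to 1.67 CPM), Ppp4c in replicate 3 (37.8 CPM, the others 43.6 to 44.8 CPM) and Kdr in replicate 2 (2365 CPM, the others 2758 to 2844 CPM). The vasoreactivity and nitric oxide list stood at 0.21 in replicate 3 of P14 df/+, on the scale of mean log2 CPM less the P14 WT mean, and at 0.13 to 0.14 in the other 3 libraries. The cell cycle list stood at 0.28 in replicate 4 of P14 df/+, on the scale of mean log2 CPM less the P14 WT mean, and at -0.16 to -0.09 in the other 3 libraries. Among P50 WT libraries the value was high for nonagouti in replicate 3 (0.0698 CPM, the others 0) and Cmklr1 in replicate 1 (7.82 CPM, the others 5.49 to 5.65 CPM). Among P50 WT libraries the value was low for Lamb1 in replicate 1 (38.5 CPM, the others 50.4 to 52.9 CPM) and Esam in replicate 1 (1244 CPM, the others 1462 to 1506 CPM). Among P14 WT libraries the value was high for nonagouti in replicate 3 (0.482 CPM, the others 0.0585 to 0.0792 CPM) and Btk in replicate 1 (0.871 CPM, the others 0.143 to 0.234 CPM). Among P14 WT libraries the value was low for Kcnj8 in replicate 3 (125 CPM, the others 146 to 149 CPM), Cdh5 in replicate 1 (1038 CPM, the others 1252 to 1262 CPM) and Pecam1 in replicate 1 (1299.8 CPM, the others 1397 to 1413 CPM). The endothelial identity list stood at -0.13 in replicate 1 of P14 WT, on the scale of mean log2 CPM less the P14 WT mean, and at 0.03 to 0.06 in the other 3 libraries. The cell cycle list stood at -0.78 in replicate 1 of P14 WT, on the scale of mean log2 CPM less the P14 WT mean, and at 0.21 to 0.30 in the other 3 libraries. The fibroblast list stood at -0.22 in replicate 3 of P14 WT, on the scale of mean log2 CPM less the P14 WT mean, and at 0.05 to 0.11 in the other 3 libraries.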

How the results depend on the processing

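The interaction called 0 genes as reported and in all 26 alternatives, with 209 to 736 genes at an unadjusted p under 0.05 in every setting other than limma-voom with sample quality weights, which listed 1378. Genes called for age numbered 3323 to 5577 in df/+ and 2911 to 5371 in WT when 1 library at a time was left out, while limma-voom with quality weights called 6508 in WT, against 3865; the cause was not tested. Replicate numbers did not pair the libraries: 11 of 24 same-numbered pairs had a correlation of their deviations over 0.1, from -0.55 to 0.49, and 6 of 16 libraries correlated best with their own number. With the replicate block 0 genes were called for the interaction, 4193 for age in df/+ and 3772 in WT. Of 108 named genes, 18 changed the sign of the interaction in some setting, all with intervals that include 0. Under limma-voom with quality weights the values were 0.0575 for Abcb1a, -0.25 for Atp5e, 0.15 for Cdh5, -0.38 for Cldn5, 0.24 for Col4a1, -0.23 for Fgfbp1, 0.0507 for Kdr, -0.10 for Mapk3, -0.0496 for Nos3, 0.10 for Pcdh12, -0.0199 for Rab11a, -0.0269 for Rps14, -0.22 for Rsph1 and -0.16 for Uqcrq. Ackr2 had -0.24 under limma-voom. With replicate 2 of P50 df/+ and replicate 1 of P14 WT both left out, Cdh5 had 0.12, Col4a1 0.11 and Pcdh12 0.0451, and Col4a1 had 0.0106 with length and GC trends removed. Leaving out 1 library gave Fgfbp1 -0.26 to 1.21, Cldn5 -0.0500 to 0.86, Mapk3 -0.0188 to 0.28, Cdh5 -0.32 to 0.0554, Slc26a10 -0.28 to 0.0218, Taok2 -0.0333 to 0.14, Col4a1 -0.26 to 0.13 and Pecam1 -0.0368 to 0.12. The medians of 19 of 35 lists moved by more than their spread between replicates in some setting. Depth limits genes below about 5 CPM most, where interactions over 1 were common without a call. Each group lay within 1 number block, so that the blocks were balanced over age and over genotype but not over their combination. Sex was not given, and the 2 mice of a library are not separate values.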

Other observations

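Among the 8 fitted interactions of the largest size, 3 are described here, chosen after their values were seen. Rps13-ps1, a processed pseudogene of a ribosomal protein gene, held 267, 1, 0 and 155 reads in the P50 df/+ libraries and 0, 0, 0 and 0 in the P14 df/+ libraries, against 167, 94, 81 and 375 in the P50 WT libraries and 161, 0, 302 and 316 in the P14 WT libraries. Replicate 2 of P14 WT was the WT library at 0, and replicates 2 and 3 of P50 df/+ were at or near 0. Rps15a-ps7, another pseudogene, held 169, 42, 6 and 69 reads in P50 df/+ and 5, 3, 4 and 9 in P14 df/+, against 68, 50, 28 and 244 in P50 WT and 107, 9, 191 and 155 in P14 WT. Gm26862 held 33, 29, 17 and 22 reads in P50 df/+ and 1, 19, 0 and 1 in P14 df/+, against 39, 12, 16 and 56 in P50 WT and 73, 0, 241 and 208 in P14 WT. These 3 features had few or no reads in replicate 2 of P14 WT. Of the 8, Rps15a-ps8 and Gm35082 also held 0 reads in that library. The pattern was not shared by Gm36283 and F730016J06Rik, with 16 and 28 reads there, their highest in P14 WT. Nonagouti held 1 read there, as in replicates 1 and 4 of P14 WT, and had reads in all df/+ libraries. The unadjusted p-values of Rps13-ps1, Rps15a-ps7 and Gm26862 were 0.0129, 0.00843 and 0.0262 by edgeR's quasi-likelihood test, with adjusted p-values of 1.00. Pseudogenes can share reads with their near-identical parent genes, so that these counts are uncertain.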
